A study of Mus musculus with 8 samples.

Results

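The genes described here encode the proteins that detect damaged DNA and repair it. The set was drawn up as 44 named mouse genes with a place in 7 routes, and a member is any of these names that the platform annotation gives to a row of the array table. Of the 44 genes, 40 had a row of their own among the 22180 genes tested. Xrcc2 had no row. Apex1, Ddb2 and Fanca appear only in rows that the annotation also gives to another gene, and no value is assigned to them. H2afx is listed under its newer symbol H2ax.

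Total RNA of whole pancreas from C57 BL6 mice was hybridised to 1 array per sample. The control group (WT, labelled LmnaWT) and the knockout group (KO, labelled LmnaKO) each held 4 arrays, from 3 males and 1 female. Mice of both groups had received tamoxifen by intraperitoneal injection, 3 mg per 40 g, and the series places tissue collection at day 6. The gene deleted is Lmna, which encodes the nuclear envelope filament protein lamin A/C, and the series title assigns the deletion to the acinar cells, which make digestive enzymes. The sources used here give neither the driver of the recombinase nor the age of the mice. Whether the arrays come from separate animals is not stated, so the p-values measure only the spread between these samples. The number of arrays limits the precision.

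A cell answers a DNA break in steps. Sensor complexes bind the lesion and recruit the kinases ATM or ATR, these phosphorylate histone H2AX and the checkpoint kinases, and adaptor proteins gather at the marked chromatin. Double-strand breaks are then closed by end joining, which ligates the ends directly, or by homologous recombination, which copies the sister chromatid and therefore operates after replication. Damaged or mispaired bases are handled by base excision, nucleotide excision and mismatch repair, and crosslinks between strands by the Fanconi anaemia pathway. Adult acinar cells divide rarely.

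Of the 40 measured members 15 rose (37.5%) and 0 fell at an adjusted p under 0.05 (limma, Benjamini-Hochberg over all genes); over all genes tested 14.6% were called higher and 6.99% lower. A positive difference was measured for 34 members and a negative one for 6, and 23 of the 40 had an unadjusted p under 0.05, against 39.1% of all genes. The median change of the members was 0.42 on the log2 scale (range -0.32 to 1.49), against -0.06 over all genes. By route, 4 of 5 end joining members rose, 2 of 3 in mismatch repair and 4 of 10 damage sensors, while 1 of 8 homologous recombination genes and 0 of 2 Fanconi anaemia genes passed. Rises of 1 log2 unit or more were measured for Atr, Parp2, Msh6 and Rad50. In 15 members all KO arrays lay above all WT arrays, and in 0 below, where 15.3% and 12.1% of all genes did so.

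**Figure D1:**
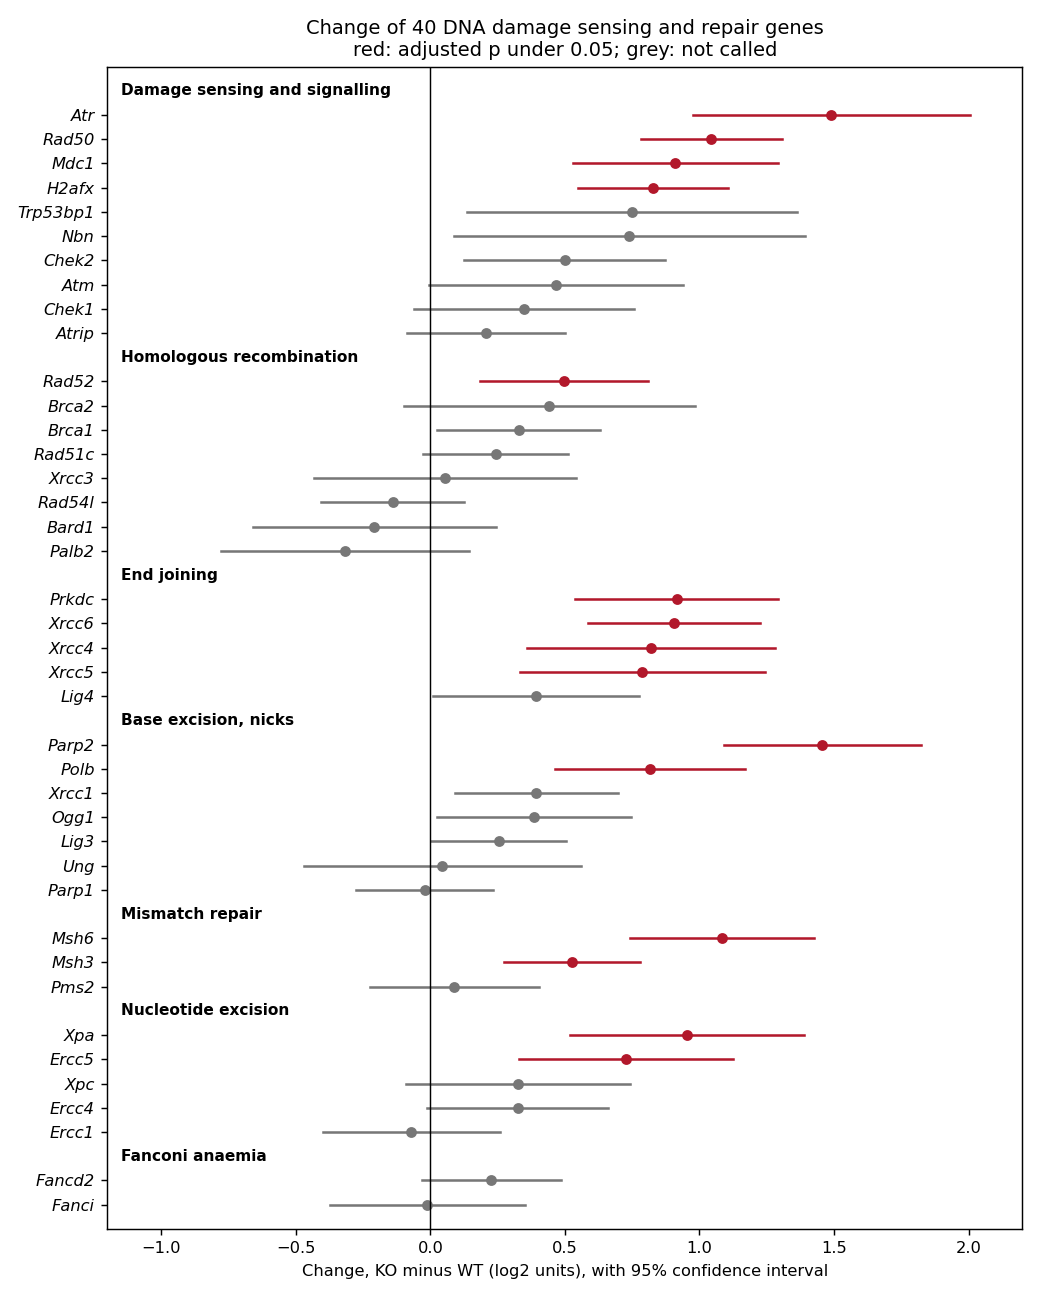
Change of each of the 40 measured members, KO minus WT in log2 units on the horizontal axis, with its 95% confidence interval (n = 4 arrays per group); members are grouped by repair route, red points passed an adjusted p of 0.05 and grey points did not. The 15 red points lie between 0.50 (Rad52) and 1.49 (Atr), and the homologous recombination genes lie between -0.32 (Palb2) and 0.50 (Rad52).

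The share of higher calls depends on how bright a gene is on these arrays, so members were set beside all genes of like array value. This value orders probes, not amounts of RNA between genes. At a mean value of 4 to 6 log2 units, 7 of 12 members were called higher (58.3%) against 37.9% of the 4708 genes in that range, with a median change of 0.80 for the members and 0.47 for all. At 2 to 4 units, 8 of 25 members were called (32%) against 12.1% of 7681 genes, with medians of 0.39 and -0.01. All 8 of these had a mean value between 3 and 4 units, a range that held 17 members and in which 22.9% of all genes were called higher. Of the 11 members under 3 units 0 were called, and 5 of the 11 belong to homologous recombination (Brca1, Brca2, Bard1, Palb2 and Rad54l). Of all genes, 5.07% were called higher at 2 to 3 units and 0.486% below 2.

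**Figure D2:**
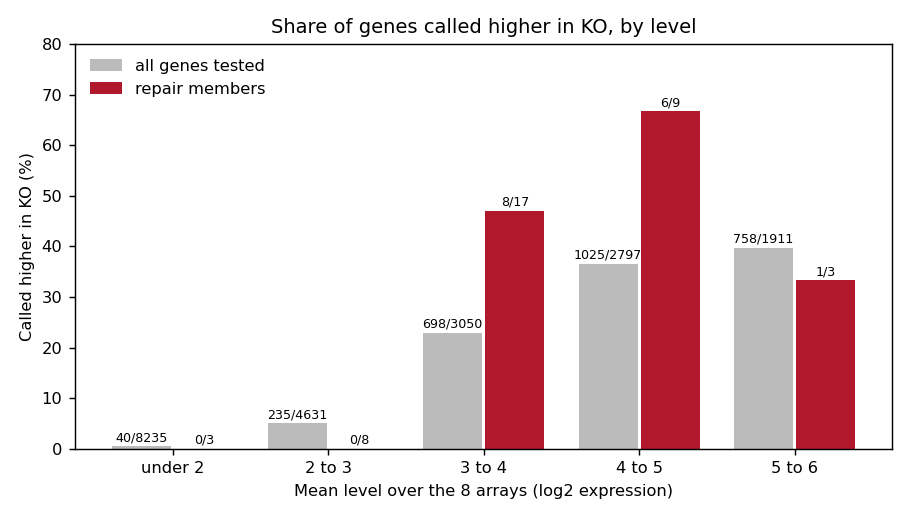
Percentage of genes called higher in KO (vertical axis, from 0) by mean value over the 8 arrays (log2 expression, horizontal axis), for all genes tested (grey) and for the repair members (red); the numbers above the bars are genes called over genes in the bin. Members stood above the share of all genes at 3 to 4 units (8 of 17) and at 4 to 5 units (6 of 9) but not at 5 to 6 units (1 of 3, against 39.7%), and 0 of 11 were called below 3 units.

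Values were more widely spread on the KO arrays, with an interquartile range of 2.88 to 3.03 against 2.10 to 2.48 log2 units over the genes tested. Of all calls 67.6% were higher in KO, 51.8% once quantile normalization was repeated, 56.4% under cyclic loess and 82.1% under median centring. Members called higher numbered 7 and 11 under the first 2 of these and 17 after centring, and the median change of the members was 0.35, 0.39 and 0.51. The 7 were Atr, Rad50, Mdc1, Prkdc, Parp2, Msh3 and Msh6. The row for Lmna did not separate the groups (-0.24 ± 0.15, limma adjusted p = 0.264); its position relative to the deleted part is unknown, so it does not check the labels. Acinar markers were the brightest of the marker lists, at a list mean of 10.27 to 10.40 in WT and 9.83 to 10.03 in KO, with 2 of 9 called lower.

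Markers of several other cell types differed between the groups as well. Of the 10 macrophage markers 4 rose, and the mean of the 10 ran from 3.77 to 5.61 in WT and from 5.28 to 6.86 in KO. Fcgr1, 1 of the 4, was dim in WT. It read 2.36, 2.26 and 2.25 in WT 1, WT 3 and WT 4, under the median gene of those arrays (2.46, 2.57 and 2.59). Of the 21 markers of dividing cells 9 rose: Pcna, Top2a, Mcm3 to Mcm7, Rrm1 and Kif11. Cdk1, Ccnb2, Ccna2, Aurka, Aurkb, Bub1, Plk1 and Birc5 were not called, with changes from -0.04 (Plk1) to 0.57 (Ccna2). Mki67 (limma adjusted p = 0.0872), Mcm2, Rrm2 and Tyms did not pass either. The mean of the 21 ran from 3.02 to 3.51 in WT and from 3.63 to 4.29 in KO. KO 1 had the lowest macrophage mean (5.28, below the 5.61 of WT 2) and the lowest dividing cell mean (3.63) of the KO arrays. The medians of the repair members were 3.85, 3.75, 3.79 and 3.81 in KO 1 to KO 4, and those of the WT arrays ran from 3.21 to 3.33. The means of the members were 3.74, 3.74, 3.75 and 3.69 in KO 1 to KO 4. Stellate markers had a median change of 0.68 with 0 of 9 called, and of 6 ductal markers 2 rose (Krt19 and Epcam) and 1 fell (Muc1). Neutrophil markers (0 of 7 called) had a list mean of 3.29 in KO 2 and 3.43 in KO 4, against 1.81 to 2.58 in the other arrays, and B and plasma cell markers (0 of 5 called) were highest in KO 2 (4.86). The part of any of these cell types in the rises of the repair genes was not tested. In whole tissue, more cells of a type and more RNA per cell cannot be told apart.

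Promoter sequence was examined because many repair genes are known targets of E2F, the factor family that switches on genes for S phase. RefSeq promoters (GRCm38.p6) were at hand for 33 of the 40 members, those of Rad50, Nbn, H2afx, Prkdc, Polb, Xpc and Fancd2 excepted, and the 250 bases before the most upstream start were searched on both strands for TTTCCCGC and TTTGGCGC, 2 common forms of the E2F motif. A match was found in 6 of the 33 (18.2%), against 1.35% of 27018 promoters of that length and 1.83% of the 16986 promoters of genes tested here. Among members that rose the motif was in 3 of 11 (Mdc1, Xrcc6 and Msh3) and among those that did not pass in 3 of 22 (Chek2, Brca2 and Bard1), with 1 match in each. Over all genes called higher in KO it was in 3.23% of 2664 promoters. The match was present both in members that rose and in members that did not. It was 1 of 4 motifs searched: CCAAT was in 15 of the 33 members (45.5%, against 34.5% of all promoters), the palindromic NRF1 motif in 1 (3.03% against 0.777%) and TTTGAA, the CHR element, in 2 (6.06% against 16.3%), and none of these shares was tested. The 4 stretches below show it in 2 members that rose and 2 that did not, on the gene's own strand with the match in capitals (GCGGGAAA is TTTCCCGC read from the other strand).
Mdc1 (rose), chr17:35841422-35841497, + strand: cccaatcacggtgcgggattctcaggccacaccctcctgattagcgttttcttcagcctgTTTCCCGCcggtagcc
Xrcc6 (rose), chr15:82016263-82016368, + strand: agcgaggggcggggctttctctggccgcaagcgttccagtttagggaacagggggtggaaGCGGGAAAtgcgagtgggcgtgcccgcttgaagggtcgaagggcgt
Brca2 (did not pass), chr5:150522393-150522520, + strand: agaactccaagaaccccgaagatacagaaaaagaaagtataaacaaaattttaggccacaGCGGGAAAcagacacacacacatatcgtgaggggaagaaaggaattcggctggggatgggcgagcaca
Bard1 (did not pass), chr1:71103114-71103222, - strand: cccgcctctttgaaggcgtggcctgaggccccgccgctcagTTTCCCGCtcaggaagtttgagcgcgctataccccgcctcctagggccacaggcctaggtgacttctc
The match began 16 bases before the start in Mdc1, 46 in Xrcc6, 168 in Brca2 and 209 in Bard1. A match is a description of letters and does not show binding.

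Damage sensing comes first. Atr, the kinase that answers single-stranded DNA at stalled forks, read 3.19, 2.27, 3.16 and 2.42 log2 units on the WT arrays, by replicate number as in all such sentences here, and 4.15, 4.14, 4.12 and 4.60 on the KO arrays. It rose by 1.49 ± 0.23 log2 units (SE, 2.81-fold, limma adjusted p = 0.00386), and every KO array lay above every WT array. Atr has a second, dimmer row, whose highest value was 2.61 in WT and 2.81 in KO and whose difference was 0.22, so the 2 rows disagree in size; the mean of both rows gave 0.85 (adjusted p = 0.0047). Its binding partner Atrip, which carries the kinase to coated single-stranded DNA, differed by 0.21 ± 0.13 (adjusted p = 0.262), with groups that overlap (3.50 to 3.90 in WT, 3.70 to 3.98 in KO).

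Atm, the kinase that answers double-strand breaks, did not pass. It read 5.17, 4.10, 4.91 and 4.49 in WT and 5.20, 5.21, 5.15 and 4.98 in KO (0.47 ± 0.21, limma adjusted p = 0.132). The KO values lay close together, and WT 1 was within their range. Without WT 1 the difference was 0.63 (adjusted p = 0.0361), while after repeated quantile normalization it was 0.07. The change of Atr exceeded that of Atm by 1.02 ± 0.18, with Atr minus Atm between -2.07 and -1.75 in WT and between -1.06 and -0.38 in KO (two-sided exact permutation p = 0.0286, which is the minimum for groups of 4; 0.100 after adjustment over 14 pairs of partner genes). With the mean of both Atr rows that excess was 0.39.

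The MRN complex holds broken ends and activates ATM. Its ATPase Rad50 read 3.71, 3.77, 3.53 and 3.89 in WT and 4.65, 4.81, 4.83 and 4.79 in KO, a rise of 1.04 ± 0.12 (2.06-fold, limma adjusted p = 0.00145), and kept its call in all 19 alternatives run. The spread within each group was small beside the gap between them. Nbn, the subunit that binds ATM, read 4.85, 3.22, 3.94 and 4.34 in WT and 4.78, 4.67, 4.83 and 5.04 in KO (0.74 ± 0.29, limma adjusted p = 0.0941). WT 1 was again as high as the KO arrays, and without it Nbn passed (0.99, adjusted p = 0.0182). Nbn passed in only 2 of 19 alternatives, and after repeated quantile normalization it was at 0.42 (adjusted p = 0.387). Mre11a, the nuclease of the complex and not a member of the set, differed by 0.42 ± 0.19 (limma adjusted p = 0.134). It passed in 1 of 19 alternatives, without WT 2 (0.60, adjusted p = 0.0224), and its change ran from 0.08 to 0.60 over all of them.

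At damaged chromatin, H2afx, the histone variant that ATM and ATR phosphorylate, read 4.27, 4.42, 4.54 and 4.38 in WT and 5.01, 5.22, 5.27 and 5.42 in KO. It rose by 0.83 ± 0.13 (1.77-fold, limma adjusted p = 0.00362), with no overlap, and lost the call after repeated quantile normalization (H2ax 0.42, adjusted p = 0.0695) and cyclic loess (0.45, adjusted p = 0.0631). Mdc1, the adaptor that reads phosphorylated H2AX, read 3.66, 3.58, 3.76 and 3.41 in WT and 4.60, 4.94, 4.27 and 4.24 in KO, a rise of 0.91 ± 0.17 (1.88-fold, limma adjusted p = 0.00764). Both groups of Mdc1 were well apart. Trp53bp1, the adaptor that favours end joining, read 4.05, 2.67, 2.74 and 3.39 in WT and 3.79, 4.05, 3.95 and 4.05 in KO (0.75 ± 0.27, limma adjusted p = 0.0763). It followed the pattern of Atm and Nbn, with WT 1 at the height of the KO arrays, and passed without WT 1 (1.03, adjusted p = 0.00611). Trp53bp1 passed in only 2 of 18 alternatives, and after repeated quantile normalization it was at 0.58 (adjusted p = 0.239).

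The checkpoint kinases downstream did not pass. Chek2, activated by ATM, read 2.93, 2.94, 2.72 and 3.33 in WT and 3.60, 3.45, 3.71 and 3.16 in KO (0.50 ± 0.17, limma adjusted p = 0.058). The 3 male KO arrays lay above all WT arrays and the female KO array did not. Without WT 4, the WT female, Chek2 passed (0.61, adjusted p = 0.0364). Chek2 passed in only 3 of 18 alternatives, and after repeated quantile normalization it was at 0.38 (adjusted p = 0.194). Chek1, activated by ATR, differed by 0.35 ± 0.18 (limma adjusted p = 0.184), from 2.17 to 3.02 in WT and from 2.73 to 3.07 in KO.

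**Figure D3:**
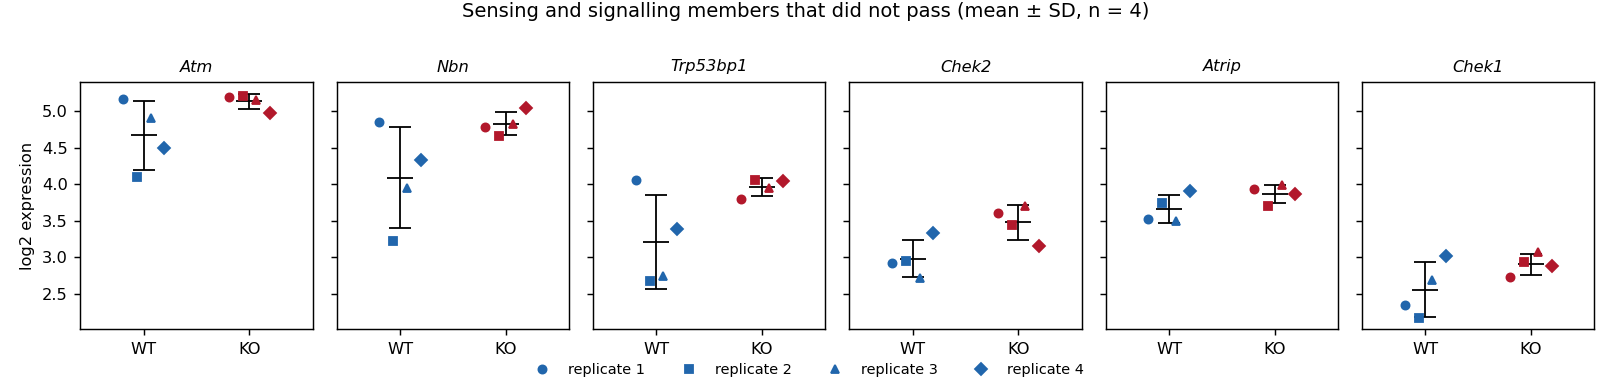
Values of the 6 sensing and signalling members that did not pass (log2 expression, vertical axis) in each WT and KO array, with the mean and SD of 4 arrays; marker shapes give the replicate number. In Atm, Nbn and Trp53bp1 the circle of WT 1 (5.17, 4.85 and 4.05) lies within the KO values while the other WT arrays lie lower.

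Of 23 other measured genes of damage signalling, 12 rose (52.2%) and 0 fell, with a median of 0.54. Their median array value was 4.12, and at 4 to 6 units 37.9% of all genes were called higher. Over all genes 14.6% were, the share to set beside the counts of other genes in each route below. Among the 23, those of smallest p were the DNA end protection factor Rif1 (1.31 ± 0.18, limma adjusted p = 0.0027), Abraxas1 of the BRCA1-A complex (1.19 ± 0.19, adjusted p = 0.00465) and the phosphatase Ppm1d, which switches the response off (0.75 ± 0.12, adjusted p = 0.00486). Ppm1d lost its call among males only (0.67). The genes named next act with ATR and were picked out after their values were seen, so they are no tested theme. The clamp loader subunit Rad17 rose by 1.39 ± 0.23 (limma adjusted p = 0.00501) and Tipin of the fork protection complex by 0.997 ± 0.216 (adjusted p = 0.0129); Rad17 kept its call in all 19 alternatives and Tipin lost it among males only. The clamp subunit Rad9a rose by 0.90 ± 0.17 and lost its call among males only, under repeated quantile normalization (0.55) and under cyclic loess (0.59). Its relative Rad9b did not pass (0.26 ± 0.17, limma adjusted p = 0.262). The calls of the clamp subunits Rad1 (0.45 ± 0.13) and Hus1 (0.85 ± 0.27) were lost in 10 of 18 and 11 of 19 alternatives. Rad1 failed without WT 1, WT 2, WT 3, KO 1, KO 3 or KO 4 and Hus1 without any 1 array other than WT 1. Rad1 has 2 rows, and its call was also lost with the mean of both (0.25, limma adjusted p = 0.122). The ATR activator Topbp1 (1.13 ± 0.30) lost its call without WT 2, KO 2, KO 3 or KO 4, and the activator Etaa1 (0.58 ± 0.14) without WT 3, KO 2 or KO 4. Both calls were lost among males only (0.80 and 0.57), and that of Topbp1 under repeated quantile normalization and cyclic loess (0.74 in each case). The partner of Tipin, Timeless (0.10 ± 0.16, limma adjusted p = 0.652) and Clspn, which links ATR to CHK1 (0.20 ± 0.15, limma adjusted p = 0.333), did not pass.

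Of the 5 end joining members 4 were called. Ku, the ring that captures broken ends, is made of the products of Xrcc6 (Ku70) and Xrcc5 (Ku80). Xrcc6 read 4.04, 4.15, 4.12 and 3.76 in WT and 4.80, 4.86, 5.22 and 4.81 in KO, a rise of 0.91 ± 0.14 (1.87-fold, limma adjusted p = 0.00416). Xrcc5 read 5.28, 4.53, 4.93 and 4.26 in WT and 5.64, 5.41, 5.55 and 5.54 in KO (rise of 0.79 ± 0.20, 1.73-fold, adjusted p = 0.0248). Neither gene had overlapping groups, but the gap between the highest WT and the lowest KO array was 0.13 log2 units in Xrcc5 and 0.66 in Xrcc6. Their changes differed by -0.12 ± 0.22 (Xrcc5 minus Xrcc6, exact two-sided permutation p = 0.629). The Xrcc5 call was lost without WT 2 (0.71), WT 4 (0.62), KO 1 (0.75), KO 3 (0.78) or KO 4 (0.79), at adjusted p of 0.0506 to 0.0647. That call was also lost among males only (0.62) and under cyclic loess (0.39). After repeated quantile normalization Xrcc5 was at 0.37 (adjusted p = 0.227), and Xrcc6 at 0.52 (adjusted p = 0.0659).

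Prkdc, the DNA-dependent protein kinase that Ku recruits, read 4.01, 3.27, 3.45 and 3.37 in WT and 4.57, 4.39, 4.29 and 4.51 in KO, a rise of 0.92 ± 0.17 (1.89-fold, limma adjusted p = 0.00722). All KO arrays were higher than all WT arrays, and the call was lost among males only (0.84, adjusted p = 0.0679). Xrcc4, the scaffold of the final ligation, read 3.19, 2.67, 2.33 and 2.31 in WT and 3.62, 3.57, 3.46 and 3.12 in KO (rise of 0.82 ± 0.21, 1.77-fold, adjusted p = 0.0226). It was the 1 called member with overlap, since WT 1 exceeded KO 4. The Xrcc4 call was lost without WT 3 (0.72), WT 4 (0.71), KO 1 (0.76), KO 2 (0.78) or KO 3 (0.81), at adjusted p of 0.0533 to 0.0599. That call was also lost among males only (0.82) and after repeated quantile normalization (0.77). Lig4, the ligase that Xrcc4 holds, read 3.53, 3.22, 3.79 and 3.49 in WT and 4.28, 3.61, 3.82 and 3.89 in KO (0.39 ± 0.17, limma adjusted p = 0.12). The other 9 end joining genes measured had a median change of -0.15, and 6 of the 9 changes were negative. Of these genes 2 rose: the scaffold Aplf (0.84 ± 0.20, limma adjusted p = 0.0198), which lost its call without WT 3 or KO 4 (0.81 in each case), and the shieldin subunit Shld2 (0.94 ± 0.21, adjusted p = 0.0136). Both calls were lost among males only (0.68 and 0.90), and that of Aplf after repeated quantile normalization (0.79).

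**Figure D4:**
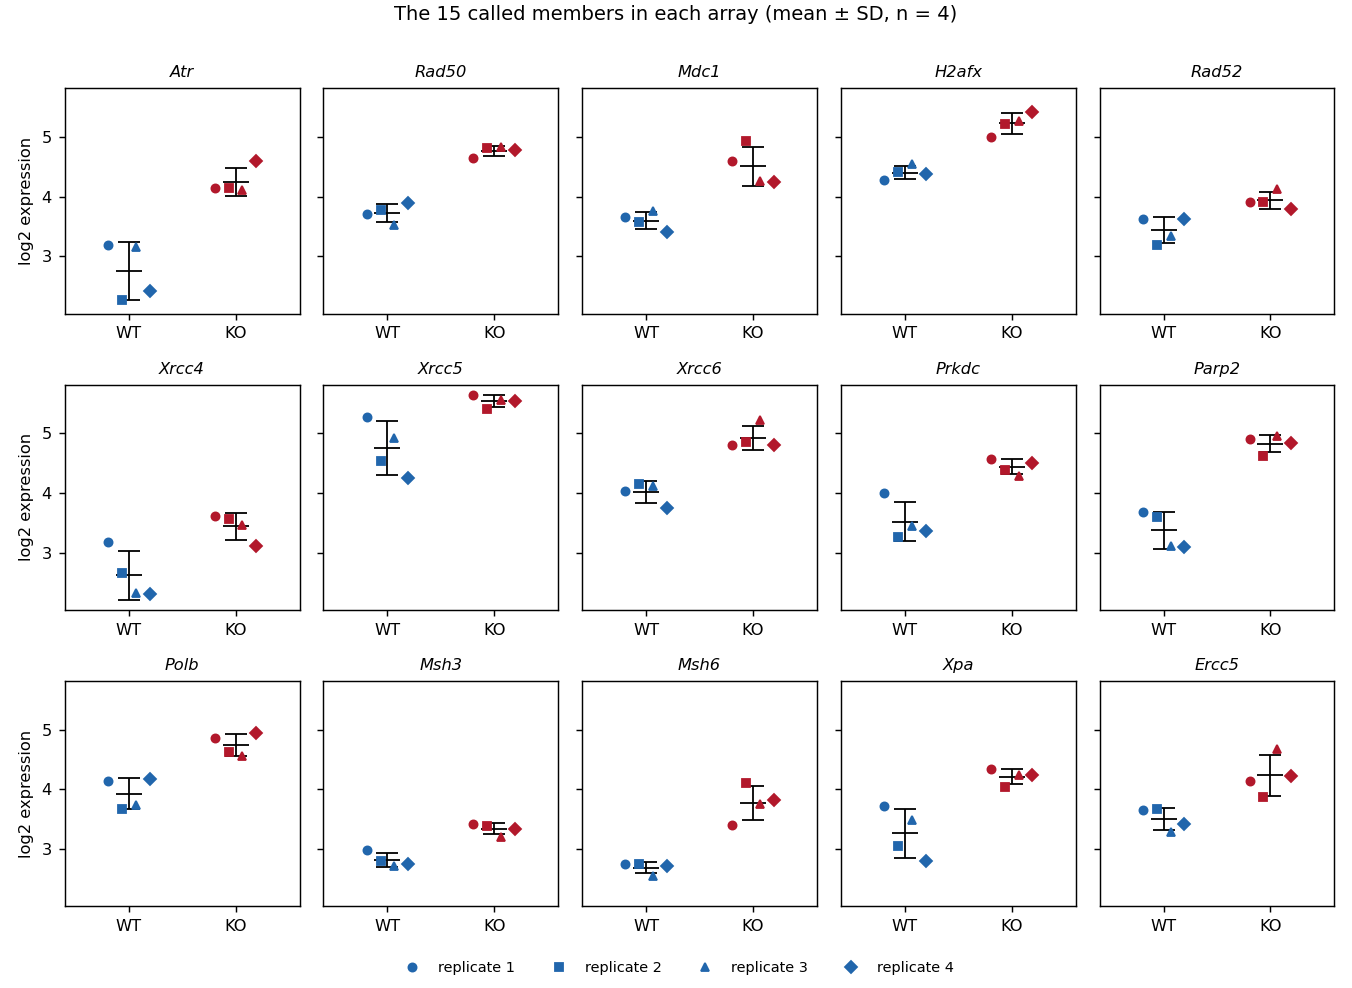
Values of the 15 called members (log2 expression, vertical axis) in each WT (blue) and KO (red) array, with the mean and SD of 4 arrays; marker shapes give the replicate number. KO arrays lie above all WT arrays in every panel but that of Xrcc4, where WT 1 (3.19) exceeds KO 4 (3.12).

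Of the 8 measured members of homologous recombination, Rad52, which anneals complementary strands, was the 1 to pass. The difference in calls between this route and end joining was not tested. It read 3.63, 3.19, 3.34 and 3.62 in WT and 3.92, 3.92, 4.14 and 3.79 in KO (rise of 0.50 ± 0.14, 1.41-fold, limma adjusted p = 0.0331). The groups did not overlap but the gap was narrow. The Rad52 call was lost with the replicate number as a block (0.50, adjusted p = 0.0538), without WT 2 (0.41), WT 3 (0.46), KO 1 (0.50), KO 2 (0.50), KO 3 (0.43) or KO 4 (0.55), and after repeated quantile normalization (0.26, adjusted p = 0.269). Males only (0.60), cyclic loess (0.29) and the trend and robust setting of limma (0.50) lost it as well.

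Brca1, the tumour suppressor ubiquitin ligase that promotes resection, read 2.44, 2.41, 2.32 and 2.47 in WT and 2.92, 2.95, 2.47 and 2.61 in KO (0.33 ± 0.14, limma adjusted p = 0.105). KO 3 was at the level of WT 4, and the other KO arrays stood above all WT arrays. Its partner Bard1 differed by -0.21 ± 0.20 (adjusted p = 0.454). For Brca2, which loads the recombinase, the difference was 0.44 ± 0.24 (adjusted p = 0.198). Brca2 passed in 1 of 18 alternatives, without WT 1 (0.67, adjusted p = 0.0319). Palb2, which links Brca2 to Brca1, differed by -0.32 ± 0.21 (adjusted p = 0.271). The changes of Brca1 and Bard1 differed by 0.54 ± 0.25 and those of Brca2 and Palb2 by 0.76 ± 0.40 (exact two-sided permutation p = 0.0857 for each, 0.171 after adjustment over the 14 pairs). Of the recombinase paralogs, Rad51c read 2.98, 3.04, 2.85 and 2.94 in WT and 3.25, 3.10, 3.03 and 3.40 in KO (0.24 ± 0.12, limma adjusted p = 0.161). Rad51c in KO 3 lay just under WT 2. Xrcc3 differed by 0.06 ± 0.22 and the motor protein Rad54l by -0.14 ± 0.12.

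Among 25 other genes of recombination 5 rose and 0 fell, with a median of 0.14. Sfr1 (1.03 ± 0.17, limma adjusted p = 0.00504) and its partner Swi5 (0.66 ± 0.17, adjusted p = 0.0246), which assist the recombinase, both rose, as did the helicase Blm (0.95 ± 0.17, adjusted p = 0.00697). The Swi5 call was lost without WT 2, WT 4, KO 1, KO 3 or KO 4 and after repeated quantile normalization, its change running from 0.25 to 0.79 over all alternatives. Swi5 also lost it among males only (0.53) and under cyclic loess (0.25), and Blm lost its call among males only (0.83).

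In base excision and the repair of single-strand breaks, Parp2 and Parp1 encode poly(ADP-ribose) polymerases that respond to strand breaks. Parp2 read 3.68, 3.59, 3.12 and 3.11 in WT and 4.90, 4.63, 4.95 and 4.84 in KO, a rise of 1.46 ± 0.16 (2.74-fold, limma adjusted p = 0.00143) that kept its call in all 19 alternatives. Parp1, which makes most of the polymer after damage, read 5.47, 5.41, 5.61 and 5.49 in WT and 5.48, 5.63, 5.32 and 5.46 in KO (-0.02 ± 0.11, 95% interval -0.28 to 0.23, adjusted p = 0.899), and fell to -0.45 (adjusted p = 0.0437) after repeated quantile normalization. Parp2 minus Parp1 ran from -2.49 to -1.78 in WT and reached at most -0.36 in KO, a difference of changes of 1.48 ± 0.23 (exact two-sided permutation p = 0.0286, 0.100 after adjustment over the 14 pairs). The WT and KO ranges of this difference did not overlap; its level compares 2 probes and has no meaning of its own.

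Polb, the gap-filling polymerase, read 4.14, 3.66, 3.74 and 4.18 in WT and 4.86, 4.63, 4.56 and 4.94 in KO (rise of 0.82 ± 0.16, 1.76-fold, limma adjusted p = 0.0088). Its groups did not overlap, and the Polb call did not hold after repeated quantile normalization (0.46, adjusted p = 0.0793). Xrcc1, the scaffold of single-strand break repair, read 3.16, 3.68, 3.31 and 3.33 in WT and 3.91, 3.65, 3.77 and 3.72 in KO (0.39 ± 0.14, limma adjusted p = 0.0635). WT 2 alone reached the KO values, and Xrcc1 passed without WT 2 (0.50, adjusted p = 0.0244). Xrcc1 passed in only 3 of 18 alternatives, and after repeated quantile normalization it was at 0.16 (adjusted p = 0.568). Ogg1, the glycosylase for oxidised guanine, read 3.60, 3.99, 4.23 and 3.73 in WT and 4.41, 4.03, 4.41 and 4.24 in KO (0.39 ± 0.16, limma adjusted p = 0.109). Values of Ogg1 overlapped. The ligase Lig3 (0.25 ± 0.11, adjusted p = 0.125) and the uracil glycosylase Ung (0.04 ± 0.23, adjusted p = 0.895) did not pass. Of 15 other genes of this route 4 rose and 0 fell, among them the glycosylase Neil1 (0.65 ± 0.15, limma adjusted p = 0.0145). Neil1 lost its call among males only (0.58). The end-cleaning enzymes Tdp2 (0.60 ± 0.16) and Tdp1 (0.57 ± 0.17) lost their calls in 10 of 19 alternatives each, including without any one array but WT 1.

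In mismatch repair, the products of Msh6 and Msh3 recognise the lesion, Msh6 mainly single mismatches and Msh3 longer loops. Msh6 read 2.75, 2.75, 2.54 and 2.72 in WT and 3.41, 4.11, 3.75 and 3.82 in KO, a rise of 1.08 ± 0.15 (2.12-fold, limma adjusted p = 0.00283), and kept its call in all 18 alternatives that held its row. Msh3 read 2.98, 2.80, 2.72 and 2.75 in WT and 3.43, 3.39, 3.21 and 3.34 in KO (rise of 0.53 ± 0.11, 1.44-fold, adjusted p = 0.0127), and lost it among males only (0.51, adjusted p = 0.0908). WT arrays were tightly grouped in both genes. The change of Msh6 was larger by 0.56 ± 0.17 (exact two-sided permutation p = 0.0286, 0.100 after adjustment over the 14 pairs). Pms2, of the endonuclease that follows recognition, read 2.12, 2.36, 2.02 and 1.94 in WT and 2.22, 2.46, 2.08 and 2.06 in KO (0.09 ± 0.14, limma adjusted p = 0.65). The related Pms1 (0.43 ± 0.11, adjusted p = 0.0251) and Mlh3 (0.84 ± 0.20, adjusted p = 0.018) rose among 4 other genes measured. The Mlh3 call was lost without KO 4, and that of Pms1 without WT 4, KO 1, KO 3 or KO 4 (changes of 0.69 to 1.03 and 0.38 to 0.63 over all alternatives). Both calls were lost among males only (0.76 and 0.40), and that of Mlh3 after repeated quantile normalization (0.69).

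In nucleotide excision repair, Xpa, which verifies the lesion, read 3.72, 3.05, 3.48 and 2.79 in WT and 4.34, 4.05, 4.24 and 4.24 in KO, a rise of 0.95 ± 0.20 (1.94-fold, limma adjusted p = 0.0106). Its KO values were close together and its WT values spread. The Xpa call was lost among males only (0.79, adjusted p = 0.0675) and after repeated quantile normalization (0.74, adjusted p = 0.0609). Ercc5, the nuclease that cuts on the 3′ side, read 3.65, 3.66, 3.29 and 3.42 in WT and 4.14, 3.87, 4.68 and 4.23 in KO (rise of 0.73 ± 0.18, 1.65-fold, adjusted p = 0.0201). The Ercc5 call was lost without WT 3 (0.65, adjusted p = 0.0538) or KO 4 (0.73, adjusted p = 0.0559) and after repeated quantile normalization (0.45, adjusted p = 0.156). That call was also lost among males only (0.70) and under cyclic loess (0.48). The nuclease on the 5′ side is a dimer of ERCC4 and ERCC1, and neither gene passed. Ercc4 read 2.40, 2.88, 2.93 and 2.99 in WT and 3.06, 3.17, 2.98 and 3.28 in KO (0.32 ± 0.15, limma adjusted p = 0.14), and Ercc1 differed by -0.07 ± 0.15 (adjusted p = 0.733). Xpc, the sensor of distorted helix and a known p53 target, read 2.76, 3.21, 2.40 and 2.84 in WT and 3.45, 2.88, 3.09 and 3.09 in KO (0.32 ± 0.19, limma adjusted p = 0.217). Groups overlapped in all but Xpa and Ercc5.

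Among 17 other nucleotide excision genes 6 rose (35.3%) and 0 fell (median 0.39). Their median array value was 4.45, and 37.9% of all genes at 4 to 6 units were called higher, so this share is near that of like genes. Ddb1, the adaptor of the damaged-DNA ubiquitin ligase, rose by 1.14 ± 0.13 (limma adjusted p = 0.00135), Uvssa of transcription-coupled repair by 0.74 ± 0.14 (adjusted p = 0.00759) and Mms19 by 1.16 ± 0.24 (adjusted p = 0.0118). Ddb1 kept its call in all 19 alternatives, while Mms19 lost it among males only (1.02) and after repeated quantile normalization (0.82), and Uvssa among males only (0.73).

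The Fanconi anaemia members did not pass. Fancd2, which is ubiquitinated at crosslinks, read 2.31, 2.26, 2.21 and 1.97 in WT and 2.44, 2.49, 2.42 and 2.33 in KO (0.23 ± 0.12, limma adjusted p = 0.172), without overlap, though the lowest KO array was 0.018 log2 units above the highest WT array. Its partner Fanci read 1.05, 1.79, 1.61 and 1.48 in WT and 1.48, 1.53, 1.56 and 1.30 in KO (-0.01 ± 0.16, limma adjusted p = 0.965), among the dimmest values of the set. Of 16 other genes of the pathway 4 rose and 0 fell. The enzyme that removes ubiquitin from FANCD2, Usp1 (1.08 ± 0.20, adjusted p = 0.00807), and its cofactor Wdr48 (1.31 ± 0.25, adjusted p = 0.0078) were those of smallest p, followed by the translocase Fancm (0.69 ± 0.18, adjusted p = 0.0246). The Fancm call was lost in 8 of 19 alternatives, among them without WT 3, WT 4, KO 1, KO 2 or KO 3 (range 0.37 to 0.83 over all). Usp1 (1.11) and Wdr48 (1.12) lost their calls among males only.

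Genes of damage bypass and direct reversal, a route with no member in the set, were measured as well, and 7 of 14 rose with 0 lower (median 0.61). Their median array value was 4.07, and 37.9% of all genes at 4 to 6 units were called higher. The translesion polymerase Polk rose 2.65-fold (limma adjusted p = 0.00335), the fork remodeller Hltf by 1.73 ± 0.41 (adjusted p = 0.018) and the polymerase Polh by 0.62 ± 0.14 (adjusted p = 0.0164). The Hltf call was lost among males only (1.74) and after repeated quantile normalization. The Polh call was lost without KO 4, among males only (0.54), after repeated quantile normalization (0.40) and under cyclic loess (0.42). Its change ran from 0.40 to 0.71 over all alternatives. Over all 8 routes 42 of 123 other repair genes rose (34.1%, against 14.6% of all genes) and 0 fell, with a median of 0.37. That count was 24 without KO 3, 21 without KO 4, 6 among males only and 19 after repeated quantile normalization. Under these settings 9.75%, 8.03%, 3.47% and 5.54% of all genes were called higher, in the same order. The median array value of the 123 was 3.34, and at 3 to 4 units 22.9% of all genes were called higher.

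Of 14 pairs of partner or related genes compared within each array, 4 reached the smallest exact p of 0.0286 (Atr with Atm, Atr with Atrip, Parp2 with Parp1 and Msh6 with Msh3), and 0 passed after adjustment over the pairs. The change of Atr exceeded that of Atrip by 1.28 ± 0.35 (0.65 with the mean of both Atr rows). With the arrays paired by replicate number, 5 of the 14 pairs reached the smallest exact p that 4 pairs of arrays allow, 0.125, so that test cannot pass 0.05; they were the same 4 and Brca1 with Bard1. The gene pairs were chosen with the values known.

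Sensitivity to processing was examined for every member. Of the 15 called members 5 kept the call under every alternative that held their row: Atr, Rad50, Mdc1, Parp2 and Msh6. Among males only 9 members were called, and 12 to 19 when 1 array was left out.

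**Figure D5:**
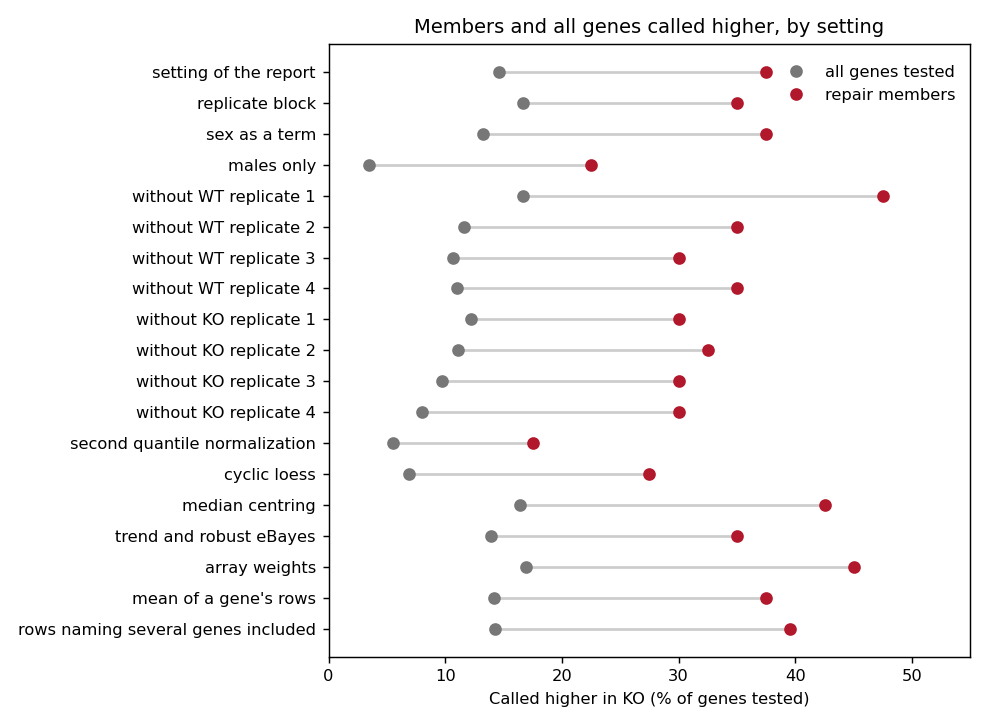
Percentage of genes called higher in KO (horizontal axis) under the setting of the report and the alternatives other than the filter on level (one line each), for all genes tested (grey) and the repair members (red). The share of members ran from 17.5% after repeated quantile normalization to 47.5% without WT replicate 1 and lay above the share of all genes under each of these settings. With the filter, not drawn, it was 68.8% of 16 members against 42.4% of all genes. A gene could pass this filter through its KO arrays alone, as Atr did (mean 2.76 in WT and 4.25 in KO). The shares under the filter are therefore not comparable with those drawn.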

How the data were processed

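The deposited table holds log2 expression values of 41345 rows on 8 arrays; the tools RMA, oligo and limma come from the submitters' processing notes, and the sources used here give no versions or probe positions. The log2 scale is read from the range of the values. Per the labels' protocols, biotinylated cDNA was made from 100 ng of RNA.

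Rows with 1 gene symbol (23521) were kept, 1814 with several and 16010 with none were left out, and the row of highest mean was used for genes in several rows, giving 22180 genes with no filter on level. Genotype was the only term in limma 3.58.1 (R 4.3.3) on all arrays, with p adjusted across all genes (Benjamini-Hochberg) and called under 0.05. Changes are KO minus WT with standard errors. Exact permutation tests of partner genes took the arrays as unpaired, and an exact sign-flip test with the arrays paired was added after the data were seen.

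Deviations of same-numbered WT and KO arrays correlated at 0.263, 0.165, 0.11 and 0.138 across genes, and those of differently numbered arrays at -0.209 to 0.125. Replicate numbers were therefore used as a possible pairing in an alternative fit, and the main values come from the unpaired fit. Blocked values stand where they change a member's call. With the block 47 other repair genes were called higher, against 42 without it, and 16.7% of all genes were, against 14.6%. On simulated data of 22180 genes, 200 of them changed, 84% of changes of 1 log2 unit and 97% of 2 units were recovered. The false share of the calls was 6.22%. In the data themselves 4792 genes were called, so these shares need not hold here.

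Members and gene lists were chosen with earlier results of these data known. Values in every array are given for called members and up to 2 others of smallest p per route (Atm, Nbn and Parp1 were added after their values were seen), and up to 3 called genes of smallest p from the other repair genes of each route (138 listed, 123 measured).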

Additional observations from a re-analysis of the deposited data

Results flagged for a closer look

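In 4 of the 80 groups of 4 arrays, 1 array stood apart from the other 3 of its group, which is the share of 5% that chance gives. Atr read 4.60 in KO 4 against 4.12 to 4.15 in the other KO arrays. Palb2 read 2.86 in WT 2 against 1.90 to 2.01, Xrcc6 5.22 in KO 3 against 4.80 to 4.86, and Msh6 2.54 in WT 3 against 2.72 to 2.75. In each of Atr, Xrcc6 and Msh6 the groups remained apart.

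In 6 members the change had opposite signs in the females and the males (Atrip, Chek1, Chek2, Xrcc3, Ung and Fanci). Of these, Chek1 and Chek2 also had male groups that did not overlap. Among males only this held for 22 of the 40 members, so it does not set Chek1 and Chek2 apart. Neither count was made over all genes. Chek1 changed by -0.13 between the females and by 0.51 between the males, and Chek2 by -0.17 and 0.72; Xrcc3 changed by -0.62 and 0.28. The genotype by sex difference was tested with limma on 1 female per genotype. It was -0.64 ± 0.37 for Chek1 and -0.89 ± 0.30 for Chek2 (unadjusted p = 0.121 and 0.0188, adjusted p = 0.9999 for both), and 1 of the 22180 genes and 0 members passed, so a difference between the sexes was not shown for any member.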

How the results depend on the processing

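Of 25 members that did not pass, 7 passed under at least 1 alternative, and no called member changed direction. With the replicate number as a block, 14 members were called, and Rad52 was the call that was lost; no other member's call changed. Among males only, 9 members and 6 other repair genes were higher, the median change of members was 0.48, and 770 genes were higher and 145 lower over all genes. After repeated quantile normalization 7 members were higher and 1 lower (Parp1), the median was 0.35, 19 other repair genes were higher and 2 lower, and 1228 genes were higher over all genes. Cyclic loess gave 26 other repair genes higher and 2 lower, and 1521 genes higher. Median centring gave a median of 0.51 and 791 genes lower. With genes of level at least 4 in the higher group, 16 members were left, their median was 0.82, and 333 genes were lower. This filter admits genes that are high in KO alone, so its median and counts are not comparable with the others. Leaving out 1 array gave 12 to 19 members higher, 21 to 47 other repair genes higher and 0 to 2 lower, and 1781 to 3713 genes higher and 459 to 2357 lower over all genes, against 15, 42, 0, 3241 and 1551 with all arrays. The count of 12 came without WT 3, KO 1, KO 3 or KO 4, the lowest counts of other repair genes and of all genes without KO 4, and the highest of each without WT 1. Alternatives for the partner pairs and for the ATR genes were chosen after seeing the data; with the mean of both Atr rows the excess over Atm was 0.39 and over Atrip 0.65. Including rows that name several genes, 17 of 43 members were called. The cause of these shifts was not tested. Signal over background is unknown for each row, and rows under 3 log2 units gave 0 calls among 11 members.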

Other observations

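WT arrays varied more than KO arrays in most repair members. The SD of the WT arrays was the larger in 28 of 40 members (70%), against 66.9% of all genes and 69.5% of genes at a mean value of 4 to 6 log2 units, so the members were like other genes in this. The median SD of the members was 0.26 in WT and 0.17 in KO. WT 1 held the highest WT value in 15 of the 40 members, WT 2 and WT 4 in 10 each and WT 3 in 5. The number of members that read above all 4 WT arrays was 27 in KO 1, 28 in KO 2, 24 in KO 3 and 22 in KO 4. Neither these counts nor those of the highest WT value were made over all genes, so they do not set the members apart.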
